A study of Mus musculus with 24 samples.

Results

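Loss of the second Acadvl allele was examined in hearts that already carried 1 affected allele of Acadl and 1 of Acadvl. The enzymes made from them, VLCAD from Acadvl and LCAD from Acadl, are mitochondrial acyl-CoA dehydrogenases for very long and long chains that take the opening step of long-chain fatty acid oxidation. The libraries labelled Acadl Het / Acadvl KO (4, called Acadvl KO) were compared with those labelled Acadl Het / Acadvl Het (3, called Acadvl Het), 7 of the 24 libraries of the series. The 4 Acadl Het / Acadvl wt libraries (called Acadvl wt) are given beside them for the level with both Acadvl alleles. All 11 hearts carry the Acadl Het label and came from male mice of 14 weeks fed chow, on a mixed strain of mostly C57BL/6N with some 129. The labels describe both alleles as Het or KO without naming their construction, and they do not say that each library is a separate mouse. The p-values therefore measure the spread between libraries only, estimated over all 24 of the series. Libraries were numbered within a genotype for naming, and the same number in different genotypes links nothing.

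Heart muscle draws most of its energy from fatty acids. The integrated stress response is a signalling route in which kinases phosphorylate the translation factor eIF2-alpha. General protein synthesis then slows while the messenger RNA of the transcription factor ATF4 is translated more, and ATF4 in turn induces genes for amino acid supply, for tRNA charging and for secreted signals such as GDF15 and FGF21. The series title names this response, so a list of its target genes is not independent of what the submitters reported.

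ATF4 binds composite sites that often read TTNCATCA, where N is any base. These letters, or TGATGNAA on the opposite strand, stood within 250 bases before to 50 bases after the RefSeq start (GRCm38.p6) of 9 of the 24 ATF4 target genes that rose in Acadvl KO hearts and have a promoter in the table (37.5%). The 9 were Asns, Pycr1, Trib3, Nupr1, Atf3, Chac1, Fgf21, Slc7a11 and Herpud1. Of all 27025 genes listed there 4.51% held a match, and of the 12221 tested genes found in it 2.95%. Among the cytosolic tRNA synthetase genes that rose, 5 of the 10 with a promoter held a match. A match describes letters and does not show binding. The 4 promoters with a match whose genes had the smallest p-values are shown from 150 bases before to 30 bases after the start, each on the minus strand, with the matched letters in capitals.
Asns, chr6:7693180-7693359: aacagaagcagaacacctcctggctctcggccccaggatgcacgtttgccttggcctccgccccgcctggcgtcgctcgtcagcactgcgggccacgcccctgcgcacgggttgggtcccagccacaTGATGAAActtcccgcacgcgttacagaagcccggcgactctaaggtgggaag
Pycr1, chr11:120643719-120643898: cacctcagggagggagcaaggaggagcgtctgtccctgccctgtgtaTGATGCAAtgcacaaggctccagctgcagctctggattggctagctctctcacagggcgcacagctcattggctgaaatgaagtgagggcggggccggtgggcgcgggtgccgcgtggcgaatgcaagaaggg
Trib3, chr2:152344031-152344210: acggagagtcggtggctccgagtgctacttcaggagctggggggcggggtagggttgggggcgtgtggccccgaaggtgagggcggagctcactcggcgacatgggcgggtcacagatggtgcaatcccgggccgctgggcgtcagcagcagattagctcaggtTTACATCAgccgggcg
Nupr1, chr7:126625441-126625620: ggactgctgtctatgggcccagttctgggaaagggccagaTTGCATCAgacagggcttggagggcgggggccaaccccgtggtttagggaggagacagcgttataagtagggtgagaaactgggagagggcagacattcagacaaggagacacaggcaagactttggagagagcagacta

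The targeted genes were read first, as a check of the labels. Levels are given in CPM, counts over the library's total after the TMM scaling described under data processing. Acadvl (chromosome 11, 70010183 to 70015428, mm10) stood at 499, 734, 495 and 669 CPM in the 4 Acadvl KO libraries. It stood at 1039, 1122 and 1075 CPM in the 3 Acadvl Het libraries and 1632 ± 82.5 CPM in Acadvl wt hearts (SD, n = 4). Every Acadvl KO library lay below every Acadvl Het library. The mean was 599.2 ± 121 CPM in Acadvl KO hearts (SD, n = 4) and 1079 ± 41.9 CPM in Acadvl Het hearts (SD, n = 3). The log2 change was -0.85 (SE 0.12, edgeR adjusted p = 9.29e-05), so reads from the gene remained in the KO libraries, and the counts do not show which exons they came from. Acadl (chromosome 1, 66830839 to 66863309, mm10) averaged 1454 ± 84.5 CPM in Acadvl KO and 1520 ± 71.5 CPM in Acadvl Het hearts, and its log2 difference of -0.07 (SE 0.07, edgeR adjusted p = 0.517) was not called.

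Total counts ran from 36051890 to 47480070 in the 7 libraries, and 17929 to 18286 genes had at least 1 count. The labels give RNA isolation batches, and Acadvl KO library 4 and Acadvl Het library 3 came from batch 1, the other 5 from batch 2. The Acadvl Het libraries hold liver transcripts. Alb, serum albumin, stood at 5.41, 36.8, 4.13 and 0.304 CPM in Acadvl KO libraries, against 159, 19.8 and 39.7 CPM in Acadvl Het libraries and 3.57 ± 3.06 CPM in Acadvl wt hearts. Acadvl KO library 2 thus lay within the Acadvl Het range, and the difference in Alb was not called (log2 -2.73, edgeR adjusted p = 0.131), though it was without that library (-4.47, edgeR adjusted p = 0.0393). The summed level of 54 hepatocyte markers was 464 to 717 CPM in Acadvl KO, 525 to 1199 CPM in Acadvl Het and 427 to 480 CPM in Acadvl wt libraries, with Alb above 0 in every library. Of the 54, 26 fell and 0 rose, and 0 fell without Acadvl Het library 1, 9 without Acadvl KO library 1, 13 without Acadvl KO library 3, 16 without Acadvl KO library 4 and at most 39 with any 1 library left out. In Acadvl Het library 1 the ribosomal RNA precursor Rn45s took 17.258% of counts, against 0.232% to 0.510% in the other 6. Lars2 and Rmrp also stood at 19584 and 199.7 CPM there and at most 414 and 0.304 CPM in the other 6. Each result was therefore recomputed without that library, with the Alb level as a term, and with Acadvl KO library 2 set against Acadvl Het libraries 2 and 3, which all held 10 to 100 CPM of Alb.

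**Figure D1:**
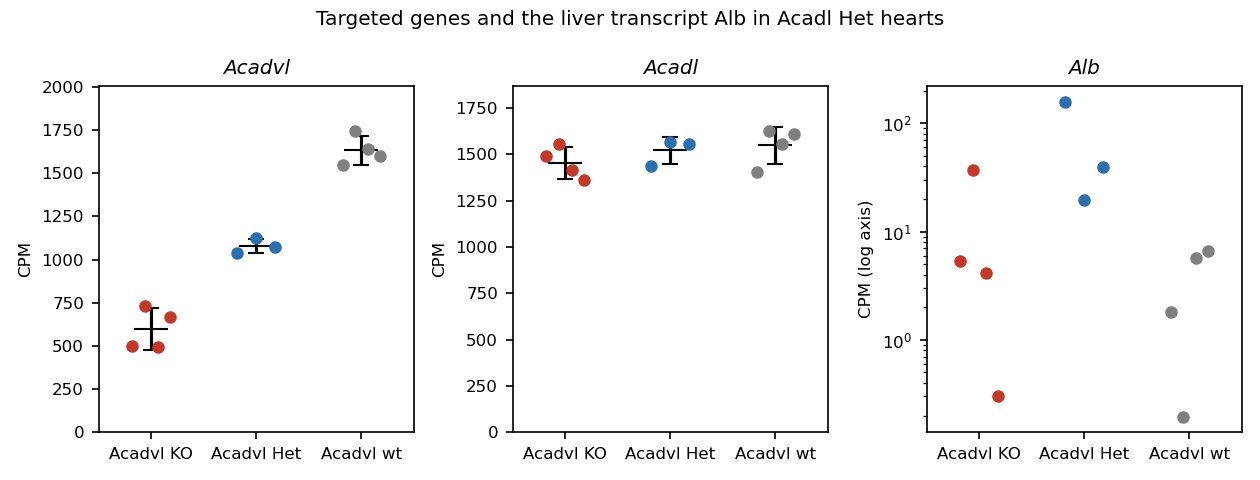
Levels of Acadvl, Acadl and Alb in CPM, 1 point per library, in Acadvl KO, Acadvl Het and Acadvl wt hearts that all carry the Acadl Het label. Black marks are means with SD, and the Alb axis is logarithmic without means. Acadvl falls stepwise with no overlap between genotypes, Acadl overlaps, and Alb is at 19.8 to 159 CPM in the 3 Acadvl Het libraries.

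Of 15804 genes tested with edgeR at an adjusted p under 0.05, 1702 (10.8%) were higher and 1571 (9.94%) lower in Acadvl KO than in Acadvl Het hearts, 20.7% in all. The 4 and 3 libraries did not overlap for 26.8% of genes, 13.5% with Acadvl KO above and 13.3% below. The median log2 change over all genes was 0.003. Counts of called members in each list below are to be read beside these shares of 10.8% higher and 9.94% lower. The liver transcripts touch mainly the falls. Of 157 tested genes that are hepatocyte markers or tracked Alb across the 17 libraries outside these genotypes, 70 fell and 1 rose, which leaves 1501 falls and 1701 rises outside them. The count of called genes was 2137 without Acadvl Het library 1, 2071 without Acadvl Het library 2, 1478 in the libraries of like Alb level, 2464 within batch 2 and 14 within batch 1, where 1 library stood against 1.

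**Figure D2:**
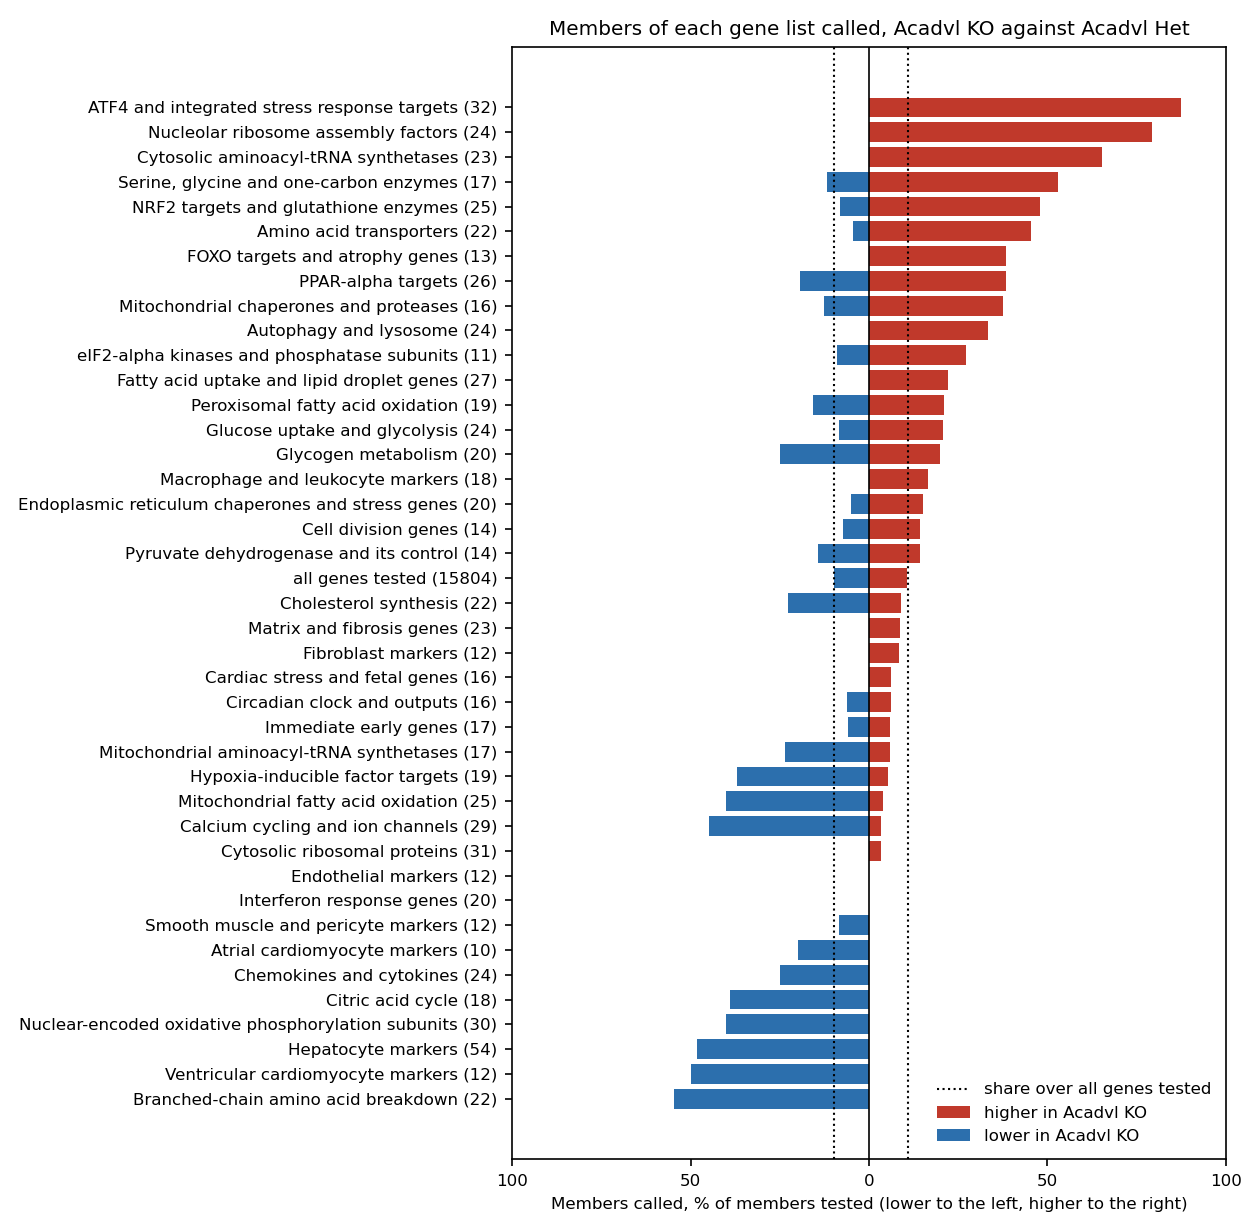
Share of the tested members of each gene list called higher (red, to the right) or lower (blue, to the left) in Acadvl KO than in Acadvl Het hearts, for lists with at least 10 tested members, whose number is in brackets. Dotted lines mark the shares over all genes tested, 10.8% and 9.94%. The ATF4, nucleolar and cytosolic synthetase lists stand at the top, and branched-chain amino acid, ventricular and hepatocyte lists at the bottom.

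Genes of the integrated stress response rose together and widely. Of 32 ATF4 and stress response targets 28 rose and 0 fell, beside 10.8% and 9.94% of all genes, and the list's median log2 change was 1.72. For 28 members every Acadvl KO library lay above every Acadvl Het library. Their summed level was 4608, 4765, 3644 and 3327 CPM in Acadvl KO libraries, against 1876, 1759 and 1734 CPM in Acadvl Het libraries and 1591 to 2047 CPM in Acadvl wt libraries. The count of risers stayed at 22 to 29 with any 1 library left out, with 28 under the Alb term, 20 in the libraries of like Alb level, 27 within batch 2 and 3 within batch 1 (median log2 1.41). Fewer libraries enter the last 3 fits.

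Atf4 itself, the transcription factor of the response, stood at 402, 456, 366 and 294 CPM in Acadvl KO libraries, against 77.9, 77.3 and 89.4 CPM in Acadvl Het libraries. The lowest Acadvl KO library was above the highest Acadvl Het library by a wide margin, and the log2 change was 2.17 (SE 0.23, edgeR adjusted p = 3.74e-06). In Acadvl wt hearts Atf4 averaged 77.9 ± 17 CPM (SD, n = 4). Of 11 genes for eIF2-alpha, its kinases, the phosphatase subunits that reverse them and related factors, 3 rose and 1 fell. The kinase genes Eif2ak1, Eif2ak2, Eif2ak3 and Eif2ak4 were not called. The fall was Oma1, a mitochondrial protease (-0.28, SE 0.10), and Eif2s1, the gene for eIF2-alpha itself, rose by 0.31 (SE 0.10). The phosphatase subunits Ppp1r15a (GADD34), which is stress-inducible, and Ppp1r15b (CReP), which is constitutive, were among the risers, at 1.42 (SE 0.21, edgeR adjusted p = 0.000121) for Ppp1r15a and 0.61 (SE 0.11) for Ppp1r15b. These counts moved by over 1.5 times when single libraries were left out, over 2 to 4 rises and 0 to 2 falls. Counts of messenger RNA do not measure phosphorylation.

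Asns encodes asparagine synthetase, and its promoter with a match at base -23 is shown above. It stood at 77.7, 65.5, 79.3 and 45.4 CPM in Acadvl KO libraries, against 5.13, 2.73 and 6.24 CPM in Acadvl Het libraries, with a fitted log2 difference of 3.75 (SE 0.46 and edgeR adjusted p = 2.07e-05). Trib3, a pseudokinase that dampens ATF4, stood at 86.9, 174, 137 and 121 CPM in Acadvl KO libraries, against 7.59, 4.15 and 5.25 CPM in Acadvl Het libraries (log2 change 4.49, SE 0.63). Neither gene overlapped between the genotypes. Chac1, which degrades glutathione, was at 95.8 to 172 CPM in Acadvl KO and 9.45 to 10.7 CPM in Acadvl Het libraries (log2 change 3.49, SE 0.55). Sesn2, a leucine sensor that restrains mTORC1, was at 27.0 to 47.5 CPM in Acadvl KO and 3.55 to 4.43 CPM in Acadvl Het libraries (log2 change 3.31, SE 0.46). Pycr1, an enzyme of proline synthesis, changed by 2.80 (SE 0.36) and Nupr1, a small stress-induced nuclear protein, by 1.20 (SE 0.19) on the log2 scale.

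The secreted signals of the response rose with more scatter between Acadvl KO libraries. Gdf15, a stress cytokine that acts on the brainstem, stood at 10.4, 61.3, 45.0 and 59.3 CPM in Acadvl KO libraries, against 1.59, 2.28 and 2.59 CPM in Acadvl Het libraries (log2 change 4.34, SE 0.69, edgeR adjusted p = 0.000254). Fgf21, a metabolic hormone, gave 71, 314, 427 and 584 reads in Acadvl KO libraries, against 10, 1 and 13 reads in Acadvl Het libraries and 2 to 7 reads in Acadvl wt libraries. Its log2 change was 5.43 (SE 0.99, edgeR adjusted p = 0.000642). Acadvl KO library 1 was the lowest of its genotype for both hormones and still above all Acadvl Het libraries. For the receptor genes Vmn2r3 and Ffar4, described below, the same library was the highest.

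The members of the list that were not called were Ddit4, Vldlr, Psph and Soat2, named after their values were seen. Psph, the last enzyme of serine synthesis, differed by -0.45 (SE 0.17, edgeR adjusted p = 0.063) and Vldlr, a lipoprotein receptor, by 0.11 (SE 0.12). Psph was called lower without Acadvl Het library 1 (-0.59) or Acadvl KO library 4 (-0.54). Ddit4 differed by 1.00 and was called without Acadvl KO library 3 (1.19), and Soat2 differed by 1.10 and was called without Acadvl KO library 2 (1.30), Acadvl KO library 4 (1.28) or Acadvl Het library 3 (1.53). Atf3, a transcription factor of the list that also counts among immediate early genes, stood at 53.4 to 114 CPM in Acadvl KO and 10.8 to 21.3 CPM in Acadvl Het libraries. Its log2 change of 2.33 (SE 0.59, edgeR adjusted p = 0.00856) became 2.07 without Acadvl Het library 1 and was then not called (edgeR adjusted p = 0.05002).

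**Figure D3:**
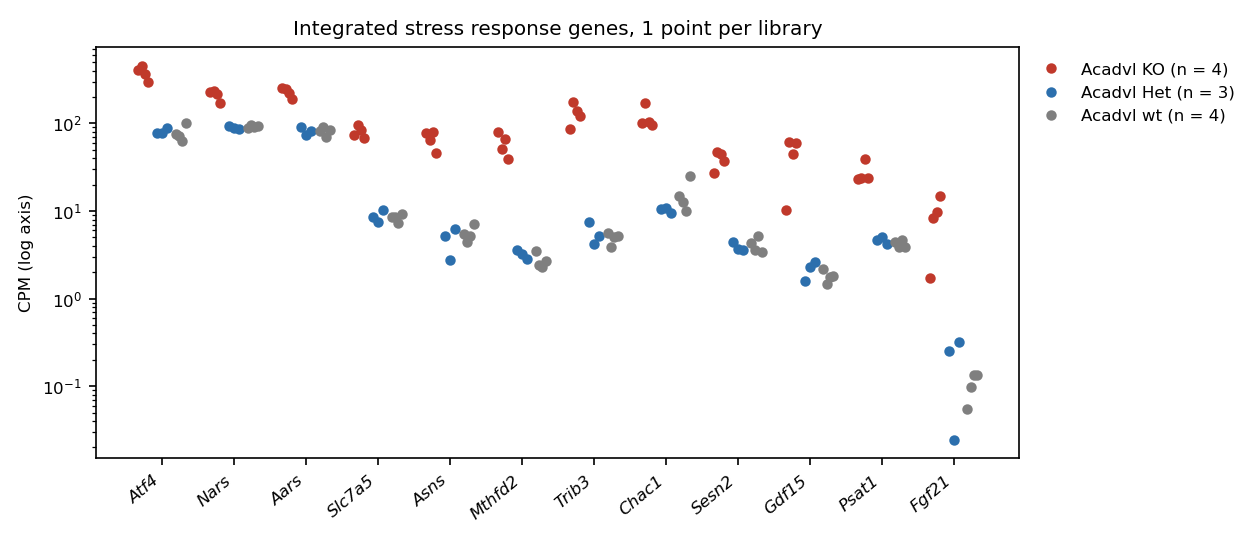
Levels of 12 integrated stress response genes in CPM on a logarithmic axis, 1 point per library, with Acadvl KO (red) left of Acadvl Het (blue) and Acadvl wt (grey). For every gene shown the 4 Acadvl KO points lie above the 3 Acadvl Het points, while Acadvl Het and Acadvl wt points lie at like levels, with Fgf21 the lowest and most scattered.

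Enzymes that charge tRNAs with amino acids were counted by compartment. Of 23 cytosolic aminoacyl-tRNA synthetases and partners 15 rose and 0 fell, with a list median of 0.62 on the log2 scale, and 14 to 16 rose with any 1 library left out. The count was 15 under the Alb term, 13 in the libraries of like Alb level, 15 within batch 2 and 0 within batch 1 (median 0.39). Their summed level was 3005, 2860, 2657 and 2212 CPM in Acadvl KO libraries, against 1475, 1397 and 1487 CPM in Acadvl Het libraries. Aars, which charges alanine tRNA, stood at 252, 250.5, 222 and 189 CPM in Acadvl KO libraries, against 90.9, 74.1 and 81.3 CPM in Acadvl Het libraries (log2 change 1.46, SE 0.13, edgeR adjusted p = 6.55e-07). Nars (asparagine, on both this and the ATF4 list) stood at 226, 235, 217 and 172 CPM in Acadvl KO libraries, against 94.1, 88.5 and 87.1 CPM in Acadvl Het libraries (log2 change 1.22, SE 0.12). Yars (tyrosine) changed by 1.42 (SE 0.16) and Tars (threonine) by 1.28 (SE 0.13). None of these 4 overlapped between the genotypes.

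Of 17 mitochondrial synthetases 1 rose and 4 fell, with a median of -0.02 and 8 above 0, and the difference between the compartments was not tested. Cars2 (cysteine) was at 29.0 to 32.2 CPM in Acadvl KO and 37.6 to 38.6 CPM in Acadvl Het libraries, with a fitted log2 difference of -0.30 (SE 0.07 and edgeR adjusted p = 0.00349). Lars2 (leucine) carried a change of -4.29 that rested on Acadvl Het library 1 and was -0.24 without it (edgeR adjusted p = 0.572). Without Acadvl Het library 2 only 2 of the 17 fell. In the libraries of like Alb level 0 were called, with a median of 0.04.

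Of 22 amino acid transporters 10 rose, 1 fell and 11 were not called, with a list median of 0.52 on the log2 scale (8 to 11 rises with any 1 library left out, 8 in the libraries of like Alb level). Slc7a5, the light chain of the large neutral amino acid exchanger, stood at 73.8, 96.3, 83.6 and 67.4 CPM in Acadvl KO libraries, against 8.50, 7.44 and 10.3 CPM in Acadvl Het libraries (log2 change 3.15, SE 0.39, edgeR adjusted p = 2.88e-05). Slc3a2, the heavy chain that pairs with it, was at 139 to 216 CPM in Acadvl KO and 42.5 to 54.8 CPM in Acadvl Het libraries (log2 change 1.76, SE 0.22). Slc1a4, which carries alanine, serine and cysteine, changed by 3.0 (SE 0.49) and Slc7a11, the cystine carrier that also pairs with Slc3a2, by 1.38 (SE 0.24). Slc7a3, a carrier of cationic amino acids, changed by 3.23 (SE 0.44) at low levels of 1.09 to 2.60 CPM in Acadvl KO and 0.148 to 0.202 CPM in Acadvl Het libraries.

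Of 17 enzymes of serine, glycine and folate metabolism 9 rose and 2 fell, with a median of 0.42. Mthfd2, a mitochondrial folate enzyme, stood at 80.9, 51.7, 66.1 and 38.8 CPM in Acadvl KO libraries, against 3.59, 3.24 and 2.84 CPM in Acadvl Het libraries (log2 change 4.12, SE 0.45, edgeR adjusted p = 8.87e-06). Mthfd1l, its partner in mitochondria, changed by 2.18 (SE 0.27). Phgdh, which opens serine synthesis from a glycolytic intermediate, was at 4.09 to 8.04 CPM in Acadvl KO and 0.958 to 1.21 CPM in Acadvl Het libraries (log2 change 2.39, SE 0.31). Psat1, the next enzyme, changed by 2.53 (SE 0.35). Psph, the enzyme after it, is the uncalled member given above. With any 1 library left out 7 to 10 of the 17 rose and 0 to 3 fell, and in the libraries of like Alb level 6 rose and 0 fell.

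NRF2 is the transcription factor of oxidative defence. Of 25 NRF2 targets and glutathione enzymes 12 rose and 2 fell, with a median of 0.33. Osgin1, a stress-induced growth inhibitor, was at 17.98, 37.7, 22.6 and 19.5 CPM in Acadvl KO libraries, against 6.73, 5.06 and 6.29 CPM in Acadvl Het libraries (log2 change 1.98, SE 0.26, edgeR adjusted p = 4.1e-05). Ftl1, the ferritin light chain, changed by 0.89 (SE 0.14). Gstp1, a glutathione transferase, moved the other way, at 57.8 to 74.1 CPM in Acadvl KO and 99.0 to 108 CPM in Acadvl Het libraries (log2 change -0.61, SE 0.09). Ftl1 and Gstp1 have close copies, so their values are uncertain. The number that rose was 8 to 12 with any 1 library left out, 7 in the libraries of like Alb level and 12 within batch 2.

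Small falls were called in the pathway to which Acadvl belongs. Of 25 genes of mitochondrial fatty acid oxidation 10 fell and 1 rose, with a median of -0.20, Acadvl itself among the falls. Acadm, the medium-chain acyl-CoA dehydrogenase, stood at 940, 1188, 1094 and 1064 CPM in Acadvl KO libraries, against 1332, 1652 and 1385 CPM in Acadvl Het libraries (log2 change -0.45, SE 0.09, edgeR adjusted p = 0.00107). Cpt2, which hands long-chain fatty acids to the matrix enzymes, was at 256 to 301 CPM in Acadvl KO and 381 to 390 CPM in Acadvl Het libraries (log2 change -0.45, SE 0.11). Acad12, an acyl-CoA dehydrogenase relative, changed by -0.62 (SE 0.10). The summed level of the other 24 genes, without Acadvl, was 14347 to 15950 CPM in Acadvl KO and 15902 to 17416 CPM in Acadvl Het libraries, and the groups overlapped. Of the 25 genes 6 fell without Acadvl Het library 2, 5 within batch 2 and 1 in the libraries of like Alb level, where the median was -0.15.

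PPAR-alpha is the fatty acid-sensing receptor that drives lipid use. Of its 26 targets 10 rose and 5 fell, with a median of 0.26, and 5 rose without Acadvl Het library 2 or Acadvl KO library 2. Acot2, a mitochondrial acyl-CoA thioesterase that has close copies, stood at 512, 502, 513 and 426 CPM in Acadvl KO libraries, against 205, 262 and 239 CPM in Acadvl Het libraries (log2 change 1.04, SE 0.15, edgeR adjusted p = 6.33e-05). Peroxisomal oxidation genes split, with 4 rises and 3 falls among 19. Acox2, a peroxisomal oxidase of branched chains and bile acid precursors, changed by 2.04 (SE 0.44) and Ehhadh, the bifunctional enzyme, by 0.80 (SE 0.17). Ech1, an isomerase, was at 1259 to 1453 CPM in Acadvl KO and 1824 to 2032 CPM in Acadvl Het libraries (log2 change -0.53, SE 0.11), and Acaa1a, a thiolase, changed by -0.31 (SE 0.07). The rises among these 19 numbered 2 without Acadvl Het library 2 or Acadvl KO library 2. Under the Alb term 9 of the PPAR-alpha targets rose and 4 fell, and 4 of the peroxisomal genes rose and 2 fell. In the libraries of like Alb level the list medians were 0.36 for PPAR-alpha targets and 0.20 for peroxisomal genes. There Ech1 stood at -0.46 and Acaa1a at -0.21, effect sizes from a fit with 1 Acadvl KO library that do not show that either fall held.

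Of 27 genes for fatty acid uptake and lipid droplets 6 rose and 0 fell (4 to 6 rises with any 1 library left out). Plin2, a droplet coat protein, was at 224, 447, 366 and 266 CPM in Acadvl KO libraries, against 153, 119 and 206 CPM in Acadvl Het libraries (log2 change 1.05, SE 0.24, edgeR adjusted p = 0.00374). Plin5, the droplet protein of oxidative tissue, changed by 0.78 (SE 0.16) and Abhd5, the cofactor of the droplet lipase, by 0.38 (SE 0.09). The lowest Acadvl KO library stayed above the highest Acadvl Het library for each of these 3 genes.

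Sugar handling was read gene by gene, beside shares of 10.8% higher and 9.94% lower over all genes. Of 24 genes of glucose uptake and glycolysis 5 rose and 2 fell, and without Acadvl Het library 2 the rises were 3. Ldha, the lactate dehydrogenase subunit of muscle, stood at 313, 348, 419 and 428 CPM in Acadvl KO libraries, against 553, 597 and 638 CPM in Acadvl Het libraries (log2 change -0.65, SE 0.10, edgeR adjusted p = 0.000114). Pfkfb1, which sets fructose 2,6-bisphosphate, changed by -1.68 (SE 0.29). Hk1, hexokinase, and Pfkp, a phosphofructokinase, changed by 0.43 (SE 0.09) and 0.45 (SE 0.10). Of 14 genes of pyruvate dehydrogenase and its control 2 rose and 2 fell, near those shares. The rises numbered 1 without Acadvl Het library 1 or 3 or Acadvl KO library 2, the last with 3 falls, and in the libraries of like Alb level 0 rose and 1 fell. Pdk1, a kinase that shuts pyruvate dehydrogenase, was at 145 to 171 CPM in Acadvl KO and 259 to 269 CPM in Acadvl Het libraries (log2 change -0.70, SE 0.08, edgeR adjusted p = 1.34e-05). Pdk2, a related kinase, changed by -0.24 (SE 0.06) and Pdhb, a subunit of the enzyme itself, by 0.34 (SE 0.08). At like Alb level neither was called, with Pdk2 at -0.16 (edgeR adjusted p = 0.361) and Pdhb at 0.44 (edgeR adjusted p = 0.0571).

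Of 20 glycogen genes 4 rose and 5 fell, and the falls numbered 3 without Acadvl Het library 1 or 2 or Acadvl KO library 2. Phkg1, the muscle gene for the catalytic part of phosphorylase kinase, which starts glycogen breakdown, stood at 14.9, 11.1, 10.2 and 9.63 CPM in Acadvl KO libraries, against 52.8, 52.7 and 79.7 CPM in Acadvl Het libraries and 64.1 ± 11.4 CPM in Acadvl wt hearts. Its log2 change was -2.40 (SE 0.19, edgeR adjusted p = 1.29e-07). Ugp2, which makes the UDP-glucose used for glycogen, was at 415 to 547 CPM in Acadvl KO and 215 to 271 CPM in Acadvl Het libraries (log2 change 0.96, SE 0.15). Stbd1, a glycogen-binding protein, changed by 0.96 (SE 0.19), and Epm2a, the glycogen phosphatase laforin, by -0.65 (SE 0.13). Under the Alb term 4 of the 20 rose and 4 fell. At like Alb level, with 1 Acadvl KO library, Phkg1 stood at -2.48 and Ugp2 at 1.17. Stbd1 stood at 0.68 and Epm2a at -0.5 there, which does not show that these 2 changes held.

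Lists of mitochondrial metabolism beyond fatty acids held falls of small size, with most citric acid cycle and oxidative phosphorylation genes not called. The ventricular cardiomyocyte markers, given below, had a median of -0.28 with 6 of 12 lower, and their part in these falls was not tested. Of 22 genes of branched-chain amino acid breakdown 12 fell and 0 rose, with a median of -0.25 and 8 to 12 falls with any 1 library left out. Bckdk, the kinase that restrains this pathway, stood at 81.2, 89.0, 89.1 and 84.0 CPM in Acadvl KO libraries, against 117, 122 and 114 CPM in Acadvl Het libraries (log2 change -0.45, SE 0.06, edgeR adjusted p = 4.54e-05). The enzymes Acad8 (-0.41, SE 0.07), Mut (-0.40, SE 0.08) and Mccc2 (-0.51, SE 0.10) were lower as well, in log2 change. Of 18 citric acid cycle genes 7 fell and 0 rose, with a median of -0.16. Sdhc, a membrane subunit of succinate dehydrogenase, was at 310 to 330 CPM in Acadvl KO and 421 to 434 CPM in Acadvl Het libraries (log2 change -0.42, SE 0.06), and Idh3g, a subunit of isocitrate dehydrogenase, changed by -0.28 (SE 0.07). The citric acid cycle falls numbered 3 without Acadvl Het library 2, 4 without Acadvl KO library 1 and 1 within batch 2.

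Of 30 nuclear-encoded subunits of oxidative phosphorylation 12 fell and 0 rose, and the log2 difference was below 0 for all 30, with a median of -0.23. Sdhb, the iron-sulfur subunit of succinate dehydrogenase, stood at 698, 801, 779 and 737 CPM in Acadvl KO libraries, against 925, 963 and 944 CPM in Acadvl Het libraries (log2 change -0.32, SE 0.08, edgeR adjusted p = 0.00663). The number that fell depended on single libraries. It was 1 without Acadvl Het library 2, 3 without Acadvl KO library 1, 6 without Acadvl Het library 3, and 7 without Acadvl KO library 4, and at most 14 with any 1 library left out, with list medians from -0.28 to -0.17. In the libraries of like Alb level, 0 of the branched-chain genes rose and 1 fell, 1 citric acid cycle gene rose and 1 fell, and 0 oxidative phosphorylation genes were called (median -0.21). Within batch 2, 8 branched-chain and 0 oxidative phosphorylation genes fell. With only the compared genotypes in the fit 7 branched-chain, 1 citric acid cycle and 0 oxidative phosphorylation genes fell.

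Of 16 mitochondrial chaperones and proteases 6 rose and 2 fell, and 5 or 6 rose with any 1 library left out. Hspa9, the mitochondrial HSP70, stood at 1264, 1165, 1093 and 948 CPM in Acadvl KO libraries, against 812, 821 and 754 CPM in Acadvl Het libraries (log2 change 0.48, SE 0.08, edgeR adjusted p = 0.000426). The co-chaperonin Hspe1 changed by 0.54 (SE 0.09). Afg3l2 and Spg7 form an inner-membrane protease together. Afg3l2 changed by 0.56 (SE 0.10) and Spg7 by -0.42 (SE 0.07), and in the libraries of like Alb level Spg7 was not called (-0.27, edgeR adjusted p = 0.127). There 4 of the 16 rose and 0 fell, and 1 of the 16 fell without any 1 of the Acadvl Het libraries or Acadvl KO libraries 1 and 3.

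Factors that assemble ribosomes in the nucleolus rose. Of 24 tested 19 rose and 0 fell, with a median of 0.53 and 14 to 21 rises with any 1 library left out. The count was 19 under the Alb term, 14 in the libraries of like Alb level and 19 within batch 2. Gnl3, nucleostemin, stood at 76.7, 86.3, 67.8 and 55.6 CPM in Acadvl KO libraries, against 25.8, 24.5 and 32.4 CPM in Acadvl Het libraries (log2 change 1.36, SE 0.17, edgeR adjusted p = 2.61e-05). Nop14 changed by 0.82 (SE 0.10), Wdr43 by 0.78 (SE 0.11) and Rrs1 by 0.62 (SE 0.09), each a factor in the making of a ribosomal subunit. Of 31 cytosolic ribosomal protein genes 1 rose and 0 fell, with a median of 0.02.

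The endoplasmic reticulum list stood near the background, with 3 rises and 1 fall among 20 and a median of -0.05. The 3 that rose were stress sensors or their target. Ern1, the sensor IRE1-alpha, was at 41.0, 55.2, 40.5 and 33.3 CPM in Acadvl KO libraries, against 16.7, 13.6 and 15.3 CPM in Acadvl Het libraries (log2 change 1.46, SE 0.17, edgeR adjusted p = 8.74e-06). Dnajb9, a co-chaperone of the lumen, changed by 1.18 (SE 0.17) and Atf6, a membrane-bound transcription factor, by 0.79 (SE 0.15). Of 24 autophagy and lysosome genes 8 rose and 0 fell (6 to 9 with any 1 library left out). Sqstm1, the p62 cargo receptor, was at 1352 to 1873 CPM in Acadvl KO and 724 to 868 CPM in Acadvl Het libraries (log2 change 0.96, SE 0.15). Fnip2, a folliculin partner, changed by 1.17 (SE 0.20), and the proton pump subunits Atp6v1h and Atp6v0d1 by 1.01 (SE 0.20) and 0.51 (SE 0.10).

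Of 13 FOXO targets and atrophy genes 5 rose and 0 fell, but 2 rose without Acadvl Het library 1 or 2 and 3 without Acadvl KO library 2. Irs2, an insulin receptor substrate, split the Acadvl KO libraries, at 169, 205, 35.3 and 42.0 CPM, against 18.2, 18.8 and 19.4 CPM in Acadvl Het libraries (log2 change 2.43, SE 0.59, edgeR adjusted p = 0.00641). Fbxo32, the muscle ubiquitin ligase atrogin-1, was at 720, 920, 528 and 436 CPM in Acadvl KO libraries, against 360, 310 and 299 CPM in Acadvl Het libraries (log2 change 0.98, SE 0.25). For both genes Acadvl KO libraries 1 and 2 were higher than 3 and 4. In Acadvl wt hearts Irs2 averaged 36.1 ± 12.7 CPM and Fbxo32 415 ± 158 CPM (SD, n = 4), so Acadvl KO libraries 3 and 4 lay within 1 SD of that mean for both.

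Of 19 hypoxia-inducible factor targets 7 fell and 1 rose, but the list's median log2 change was 0.086, with 11 above 0. Egln3, a prolyl hydroxylase that marks this factor for breakdown, stood at 15.95, 18.9, 23.6 and 20.4 CPM in Acadvl KO libraries, against 47.8, 45.5 and 41.4 CPM in Acadvl Het libraries (log2 change -1.19, SE 0.15, edgeR adjusted p = 2.03e-05). Egln1, a relative with the same action, changed by -0.37 (SE 0.07), and Ldha and Pdk1, given above, belong to this list too. The falls numbered 6 or 7 with any 1 library left out, 6 within batch 2 and 4 in the libraries of like Alb level.

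Of 29 genes of calcium cycling, ion channels and adrenergic receptors 13 fell, 1 rose and 15 were not called, with a median of -0.48 and 8 above 0. With any 1 library left out 11 to 13 fell, and the rise was lost without any 1 of Acadvl Het libraries 1 and 2 or Acadvl KO libraries 1, 2 and 3. The falls numbered 12 under the Alb term, 8 in the libraries of like Alb level and 10 within batch 2. Adra1b, an alpha-1 adrenergic receptor, stood at 15.2, 18.8, 23.5 and 21.5 CPM in Acadvl KO libraries, against 45.3, 64.1 and 53.4 CPM in Acadvl Het libraries (log2 change -1.46, SE 0.16, edgeR adjusted p = 4.96e-06). Its relative Adra1a changed by -1.09 (SE 0.13). Kcnj3 and Kcnj5, the paired subunits of the acetylcholine-gated potassium channel, changed by -1.64 (SE 0.23) and -1.45 (SE 0.31), and Kcnj12, an inward rectifier, by -0.93 (SE 0.14). Kcnj3 and Kcnj5 also mark atrial muscle, and of 10 atrial markers these 2 were the ones called.

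The tissue was read from its markers. Of 12 ventricular cardiomyocyte markers 6 fell and 0 rose, with a median of -0.28. Their summed level was 88290 to 104900 CPM in Acadvl KO and 99197 to 107780 CPM in Acadvl Het libraries, which overlap. Pln, the brake on the calcium pump, was at 3161, 3826, 3608 and 3995 CPM in Acadvl KO libraries, against 5068, 5640 and 4511 CPM in Acadvl Het libraries (log2 change -0.48, SE 0.10, edgeR adjusted p = 0.00201). Myl2, the ventricular myosin light chain, changed by -0.47 (SE 0.10). The falls numbered 2 without Acadvl Het library 2, and 3 without Acadvl Het library 3, Acadvl KO library 1 or Acadvl KO library 4. Within batch 2 they were 2, and 0 in the libraries of like Alb level. In bulk tissue, fewer cells of a type and less RNA per cell cannot be told apart.

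Of 16 cardiac stress and fetal genes 1 rose and 0 fell. Acta1, the skeletal actin that failing hearts re-express, stood at 750, 948, 863 and 810 CPM in Acadvl KO libraries, against 387, 276 and 187 CPM in Acadvl Het libraries, without overlap. Its log2 change of 1.57 (SE 0.49, edgeR adjusted p = 0.0268) was not called without Acadvl Het library 2 (1.57), Acadvl KO library 2 (1.52) or Acadvl Het library 3 (1.35).

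Markers of other cells gave few calls, beside 10.8% higher and 9.94% lower over all genes. The summed level of 18 macrophage and leukocyte markers was 382 to 652 CPM in Acadvl KO and 305 to 423 CPM in Acadvl Het libraries, and 3 rose and 0 fell, with 6 rises without Acadvl KO library 2, 1 without Acadvl Het library 3 and 0 in the libraries of like Alb level. Cd68, a lysosomal protein of macrophages that lies 0.344 Mb from Acadvl, was at 8.92, 6.71, 12.3 and 16.3 CPM in Acadvl KO libraries, against 4.60, 6.19 and 6.26 CPM in Acadvl Het libraries. Its log2 change was 0.96 (SE 0.24, edgeR adjusted p = 0.00675), and 0.15 in the libraries of like Alb level, not called. The summed level of 12 fibroblast markers was 3021 to 3521 CPM in Acadvl KO and 2623 to 3315 CPM in Acadvl Het libraries. In that list 1 rose, the microfibril protein Mfap5, by 0.85 (SE 0.18). Ctla4, a T cell inhibitory receptor and the 1 of 9 lymphocyte markers called, was at 1.01 to 1.41 CPM in Acadvl KO and 4.52 to 5.39 CPM in Acadvl Het libraries (log2 change -2.07, SE 0.20, edgeR adjusted p = 1.06e-06). In 6 lists edgeR called 0 members, and at an unadjusted p under 0.05 it had 1 of 12 endothelial, 4 of 20 interferon response, 1 of 7 adipocyte, 0 of 7 erythroid, 0 of 9 epicardial and 0 of 2 lung epithelial genes. Among these, limma voom called 1 interferon response gene and DESeq2 called 0 genes. Without Acadvl KO library 3 edgeR called 3 interferon response genes lower, and 2 without Acadvl KO library 4.

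Chemokines and cytokines had 6 falls and 0 rises among 24, with a median of -0.97. Their summed level was 400 to 458 CPM in Acadvl KO and 398 to 596 CPM in Acadvl Het libraries, which overlap. Every Acadvl KO library lay below every Acadvl Het library for 3 members and above for 1, beside 13.3% and 13.5% of all genes. Il15, a cytokine of lymphocyte survival made by muscle, was at 14.3, 15.1, 13.9 and 14.4 CPM in Acadvl KO libraries, against 27.0, 31.2 and 26.8 CPM in Acadvl Het libraries (log2 change -0.98, SE 0.15, edgeR adjusted p = 0.000129). The falls in that list numbered 1 without Acadvl Het library 3, 3 without Acadvl KO library 1 or 2, 8 without Acadvl KO library 3 and 1 within batch 2. Of 22 cholesterol synthesis genes 2 rose and 5 fell, beside 10.8% and 9.94% of all genes. The falls numbered 2 without Acadvl Het library 1 or 2 or Acadvl KO library 1 or 2. Fdft1, squalene synthase, changed by -0.59 (SE 0.12) and Hmgcs1, an earlier cholesterol enzyme, by 0.31 (SE 0.08). Hmgcs1 was not called within batch 2 (0.23, edgeR adjusted p = 0.135) or with only the compared genotypes fitted (edgeR adjusted p = 0.083). Under the Alb term 2 of the 22 rose and 3 fell, and within batch 2 0 rose and 3 fell. In the libraries of like Alb level the list median was -0.25, with Fdft1 at -0.53 and Hmgcs1 at 0.39. These are effect sizes from a fit with 1 Acadvl KO library and do not show that either change held. Of 16 circadian clock and output genes 1 rose and 1 fell, beside 10.8% and 9.94% of all genes. The median of these 16 was 0.015, with 8 above 0. The clock output Hlf changed by -1.52 (SE 0.27) and the clock repressor Ciart by 1.83 (SE 0.33). Of 14 cell division genes 2 rose and 1 fell, near the shares over all genes, with 13 above 0 and a median of 0.15. Their summed level was 227 to 300.4 CPM in Acadvl KO and 173 to 210.2 CPM in Acadvl Het libraries. The rises numbered 0 without Acadvl Het library 1, 1 without Acadvl Het library 3 or Acadvl KO library 1, and 0 in the libraries of like Alb level (median -0.32). The median ran from -0.08 to 0.56 with any 1 library left out. The fall was Cenpf, a kinetochore protein, which was at 2.86 to 6.00 CPM in Acadvl KO and 10.5 to 18.1 CPM in Acadvl Het libraries (log2 change -1.69, SE 0.28).

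The largest rises outside the liver genes, among genes at 1 CPM or more whose libraries did not overlap, were 8 of the genes above and 2 others. Vmn2r3, annotated as a vomeronasal receptor, gave 358, 122, 271 and 55 reads in Acadvl KO libraries, against 5, 3 and 0 reads in Acadvl Het libraries and 0 to 2 in Acadvl wt libraries. Its level was 8.72, 3.26, 6.18 and 1.39 CPM in Acadvl KO libraries, and the fitted log2 change was 6.02 (SE 0.66, edgeR adjusted p = 1.04e-06). Ffar4, a cell-surface receptor for long-chain fatty acids, gave 197, 69, 31 and 13 reads in Acadvl KO libraries, against 3, 5 and 2 reads in Acadvl Het libraries (log2 change 4.42, SE 1.13, edgeR adjusted p = 0.00755). It was not called in the libraries of like Alb level, at 4.43 (edgeR adjusted p = 0.0533).

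Aqp4, a water channel of muscle and brain membranes, had the largest fall by the same rule. It stood at 0.292, 0.321, 0.456 and 0.735 CPM in Acadvl KO libraries, against 6.78, 13.2 and 9.69 CPM in Acadvl Het libraries and 11.4 ± 1.74 CPM in Acadvl wt hearts. The log2 change was -4.45 (SE 0.32, edgeR adjusted p = 3.73e-08), and -5.22 in the libraries of like Alb level. Cacng6, a calcium channel gamma subunit, was at 0.0802 to 0.659 CPM in Acadvl KO and 2.20 to 3.04 CPM in Acadvl Het libraries (log2 change -2.93, SE 0.34). Scd4, a stearoyl-CoA desaturase with close relatives, was at 10.9, 13.2, 33.7 and 21.3 CPM in Acadvl KO libraries, against 111, 113 and 130.5 CPM in Acadvl Het libraries (log2 change -2.55, SE 0.36). The groups did not overlap for these 3 genes.

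The other large falls were Cpn2 (-2.57, SE 0.50), Pirt (-2.43, SE 0.40), B3galt2 (-2.41, SE 0.60), Phkg1, Tmem100 (-2.37, SE 0.40), Ankrd63 (-2.34, SE 0.35) and Smim5 (-2.31, SE 0.32), in log2 change. Cpn2 encodes a subunit of a plasma carboxypeptidase that the liver makes, and it was not called in the libraries of like Alb level (-2.36, edgeR adjusted p = 0.118). B3galt2, a galactosyltransferase, was not called without Acadvl Het library 2 (-2.01, edgeR adjusted p = 0.062). Tnni2, a fast skeletal troponin, changed by -1.5 (SE 0.37) at 0.319 to 0.760 CPM in Acadvl KO and 1.33 to 1.62 CPM in Acadvl Het libraries.

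**Figure D4:**
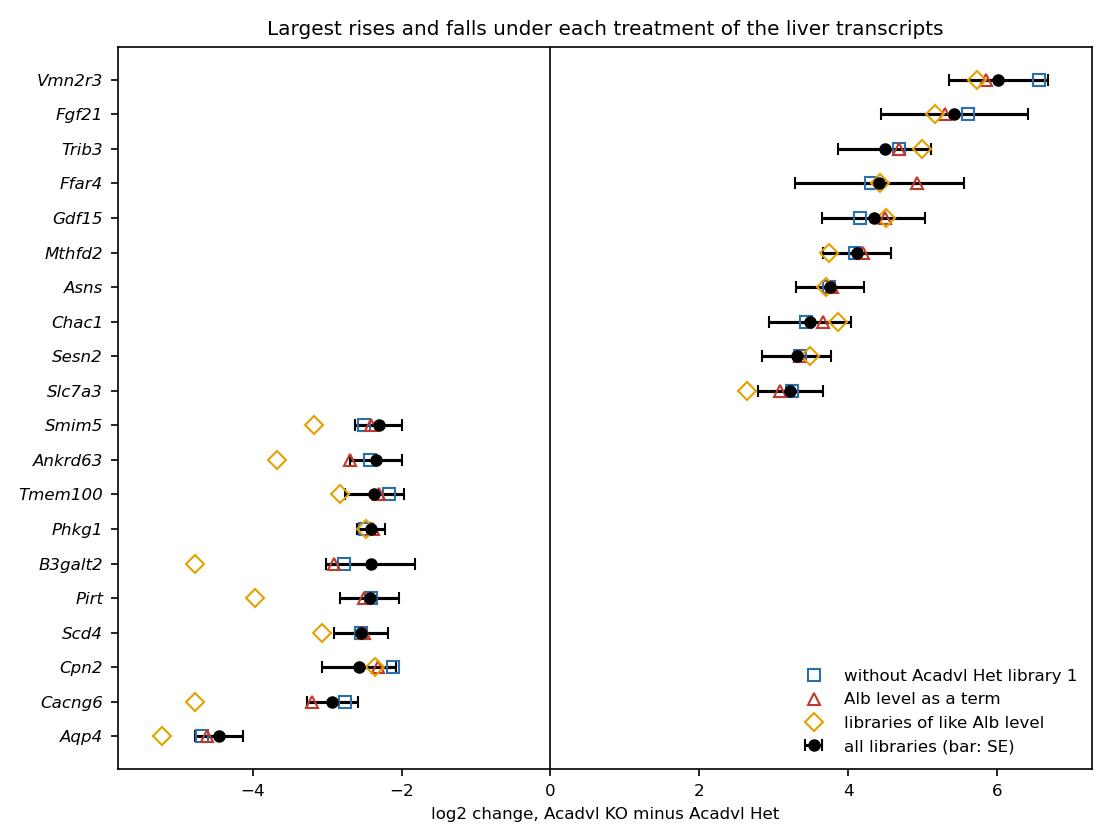
Log2 change of Acadvl KO minus Acadvl Het for the 10 largest rises and 10 largest falls. Black points with SE bars use all libraries, and open marks leave out Acadvl Het library 1, add the Alb level as a term, or use only libraries of 10 to 100 CPM of Alb. All marks for a gene lie on the same side of 0, and the falls of B3galt2, Cacng6, Pirt and Ankrd63 are larger in the libraries of like Alb level.

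The loss of the second allele was then set beside the loss of the first, Acadvl Het against Acadvl wt, by a direct test of the difference between the steps. The steps share the Acadvl Het libraries, so their values are given side by side. For the ATF4 list the median log2 change was 1.72 for Acadvl KO against Acadvl Het and 0.002 for Acadvl Het against Acadvl wt. For the cytosolic synthetases it was 0.62 and -0.03, and for the nucleolar factors 0.53 and -0.06. edgeR called a difference between the steps for 379 genes (2.4% of those tested), 139 upward and 240 downward, of which 76 are hepatocyte markers or tracked Alb. Without Acadvl Het library 1 the count was 18, all among the 379.

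Of the 379 differences, 375 kept their sign without Acadvl Het library 1, when 2 Acadvl Het libraries remain. The ATF4 list held 14 of the 379 and none of the 18 called without that library. Aqp4 changed by -4.45 with the second allele and by -0.21 with the first, a difference of -4.24 (SE 0.47, edgeR adjusted p = 0.000161). Phkg1 changed by -2.40 and -0.04, a difference of -2.36 (SE 0.31, edgeR adjusted p = 0.00129). 3632451O06Rik, an uncharacterised gene, stood at 5.57 to 7.16 CPM in Acadvl KO and 21.8 to 24.3 CPM in Acadvl Het libraries, with changes of -1.87 and -0.18. Aars changed by 1.46 and -0.02, a difference of 1.48 (SE 0.23, edgeR adjusted p = 0.00321). Nufip1, which takes part in the assembly of nucleolar RNA-protein particles, changed by 1.13 and -0.31. Mpv17, a protein of the inner mitochondrial membrane, was at 34.3 to 44.3 CPM in Acadvl KO and 66.9 to 72.8 CPM in Acadvl Het libraries, with changes of -0.79 and 0.06. Adra1b, Ctla4 and Smim5 were also among the 18, and the others were Cyp3a13, Inafm2, Klhl13, Map1b, Pdlim4, Pdzrn4, Pkig, Ramp1 and Stard5, named after their values were seen. For Acadvl itself the log2 changes were -0.85 and -0.60, and the difference of -0.25 was not called (edgeR adjusted p = 0.636).

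**Figure D5:**
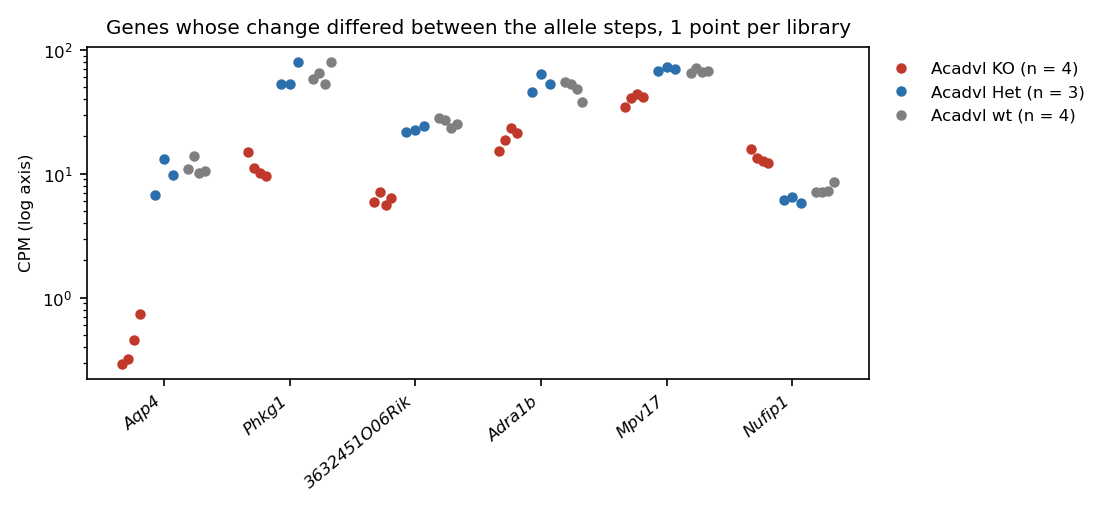
Levels of 6 genes whose change differed between the loss of the second and of the first Acadvl allele, in CPM on a logarithmic axis, 1 point per library, with Acadvl KO (red), Acadvl Het (blue) and Acadvl wt (grey). Acadvl Het and Acadvl wt points lie at like levels, while the Acadvl KO points lie apart, lowest for Aqp4 at 0.292 to 0.735 CPM and higher for Nufip1.

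On a mixed strain, genes linked to the targeted locus can differ with the allele, so calls were counted by position. Within 5 Mb of Acadvl 19 of 165 tested genes rose and 16 fell (21.2% called), within 10 Mb 20.9% of 325 were called, on the remaining chromosome 11 22.9% of 980, and on other chromosomes 20.6% of 14434. Of the near genes, Eif4a1, a translation initiation helicase, stood at 333, 320, 296 and 249 CPM in Acadvl KO libraries, against 193, 160 and 213 CPM in Acadvl Het libraries (log2 change 0.66, SE 0.11, edgeR adjusted p = 0.000388). It lies 0.338 Mb from Acadvl, beside Cd68. Cluh, which binds messenger RNAs of mitochondrial proteins, changed by 0.58 (SE 0.11), Tsr1, a ribosome maturation factor, by 0.74 (SE 0.12) and Srr, serine racemase, by 0.45 (SE 0.09). Pirt, a regulator of sensory ion channels given among the falls, lies 3.08 Mb away. Linkage and response cannot be told apart for these genes.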

How the data were processed

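RNA of mouse hearts was sequenced as 100-nt single reads on a HiSeq 2500 after polyA selection, per the labels' protocols. The deposited values are raw counts per gene, which the authors made with featureCounts 1.5.2 over exons of mm10, unstranded, with primary alignments only and reads that overlap several genes counted for each, per the file headers. Alignment was with STAR 2.5.1b, and featureCounts appears as 1.5.3, per the submitters' processing notes. Unstranded counting cannot separate overlapping genes, and the tables hold 0 mitochondrially encoded genes.

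Counts of all 24 libraries (6 genotypes, 9 in RNA isolation batch 1 and 15 in batch 2) were fitted with edgeR 4.0.16 in R 4.3.3, by the quasi-likelihood test with genotype and batch as terms, TMM scaling and the default filter on low counts. All genotypes share 1 estimate of the spread. Contrasts were Acadvl KO minus Acadvl Het, Acadvl Het minus Acadvl wt, and their difference, two-sided, with Benjamini-Hochberg adjustment over all genes tested and a threshold of 0.05. CPM are counts over the library's total after TMM scaling, so they differ from plain shares of the library's counts. The percentages given for Rn45s are such plain shares. Total counts in the 7 libraries ran from 36051890 to 47480070, and pairs of one genotype differed beyond sampling noise (chi-square per degree of freedom 26.9 to 557.7), so no library was counted as a copy.

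The named genes are Acadl and Acadvl, the 10 largest called rises and falls at 1 CPM or more without overlap and outside the liver genes and predicted genes, up to 4 called members of each list by adjusted p, called genes within 5 Mb of Acadvl, genes whose steps differed, and Alb and Rn45s. Some genes that this rule takes were left unnamed, most because their call was lost when a single library was left out, and a few genes outside it were added after their values were seen. The members and lists were chosen with earlier results of these data known. A gene tracked Alb where its partial correlation with Alb was at least 0.7 over the 17 other libraries.

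Alternatives were a fit of only the genotypes compared, no batch term, an Alb term, other size factors, no filter, Rn45s left out, single batches, each library left out, limma 3.58.1 (voom) and DESeq2 1.42.0. The comparison of libraries of like Alb level was added after seeing the data. On simulated counts for Acadvl KO against Acadvl Het, only a small set of well-counted genes was changed. No extra liver transcripts or Rn45s were put into the simulated Acadvl Het libraries. The test recovered 37 of 68 changes of 1.5-fold (54.4%), 55 of 66 of 2-fold (83.3%) and 63 of 66 of 4-fold (95.5%). It made 15 false calls beside these, among 15695 genes. In the data 3273 genes were called, so these rates need not hold there.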

Additional observations from a re-analysis of the deposited data

Results flagged for a closer look

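For 8 of the 126 named genes, 1 of the 4 Acadvl KO libraries stood apart from the other 3. Its gap to its neighbour took more of the range than the critical value of Dixon's test. Chance gives such a gap in about 1 of 20 groups, so 8 among 126 genes is close to that rate. Acadvl KO library 2 was the high one for Acad12 (78.4 CPM, gap 0.841 of the range), for Alb (36.8 CPM, 0.860), for Chac1 (172 CPM, 0.895) and for Pycr1 (11.8 CPM, 0.839). Acadvl KO library 4 was the low one for Acot2 (426 CPM, 0.876) and for Acox2 (5.20 CPM, 0.941). Acadvl KO library 1 was the high one for Pfkfb1 (13.9 CPM, 0.936), and Acadvl KO library 3 was the high one for Psat1 (39.6 CPM, 0.943). For all of these genes except Alb the 4 Acadvl KO libraries and the 3 Acadvl Het libraries did not overlap.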

How the results depend on the processing

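The count of genes called between Acadvl KO and Acadvl Het, 3273, was 1164 with only these genotypes in the fit, 14 within batch 1 and 1478 in the libraries of like Alb level, and 2071 to 3502 with any 1 library left out. It was 2464 to 3620 under the other alternatives. With the Alb term 2976 were called, 2681 of them shared, and of the 1478 called in the libraries of like Alb level 1244 were shared. The count of genes whose steps differed, 379, was 63 with only the compared genotypes, 177 with the Alb term, 56 within batch 2, 1 within batch 1, 48 in the libraries of like Alb level, 191 with limma voom and 589 with DESeq2, and 18 to 594 with any 1 library left out. The causes were not tested, though fits of fewer libraries have fewer degrees of freedom. At like Alb level all 4 Acadvl wt libraries stayed in the fit, so the first step was not matched on Alb there.

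Signs turned for Alb (0.07 with the Alb term, 0.72 at like Alb level), Lars2 (0.06 in batch 1), Rn45s (0.26 in batch 1), Rmrp (0.47 in batch 1, -8.93 to 0.19 with any 1 library left out, the 0.19 without Acadvl Het library 1, 0.25 at like Alb level) and Soat2 (-0.04 at like Alb level). Of 126 named genes, 90 kept direction and side of the threshold at like Alb level, where 33 kept their direction but were not called, 124 with the Alb term and 104 with only these genotypes fitted. Genes had been left unnamed mostly because their call was lost when a single library was left out, so these counts favour stable genes. No paired analysis was possible because library numbers follow accession order and link no libraries across genotypes.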
